A study of Mus musculus with 3 samples.

Results

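The genes described here are 38 markers of the G2 phase and mitosis, taken by symbol from a written list and all found among the 32285 genes of the deposited matrices. They were summed in each cell of 3 single-cell libraries of normal mouse embryos. The label for genotype in all 3 is "ARC mouse strain", and no group carries a mutation or a treatment. The groups are embryonic day 7.0 (E7.0), E7.25 and the posterior region of embryos at E7.5, with 1 library each. How many embryos went into a library is not given in the sources used here, and stage, library and, at E7.5, dissected region cannot be told apart. Cells were grouped by 6 lineage markers: Utf1 for the epiblast, T for the primitive streak, Mesp1 for early mesoderm, Noto or Foxj1 for the node and notochord, Ttr for the visceral endoderm and Elf5 for the extraembryonic ectoderm. The question was which of these cells hold a small and which a large share of the 38 transcripts.

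Before a cell divides it makes a set of transcripts that are low in G1 and climb through G2. Cyclin B and cyclin A switch on the kinase Cdk1, kinetochores and the spindle move the chromosomes, and the anaphase promoting complex then destroys the cyclins so that the cell can leave mitosis. Many of these genes are held back in resting cells and released in G2 by the MuvB complex, which binds a short element called CHR near the start site, often together with the factor NF-Y at upstream CCAAT boxes. The summed level of such genes is widely used to mark cells in G2 or mitosis, and cells that have left the cycle hold very little of it. In a sum over cells, more cells in G2 and more transcripts per such cell cannot be told apart. In the gastrulating mouse embryo the epiblast and streak are known for rapid division, whereas ciliated cells of the node must keep their centrioles as ciliary bases and are known as a largely non-dividing group.

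Promoter sequence shows the element that many of these genes share, so it is given for the 5 members with the most transcripts that hold both motifs. Windows from RefSeq on GRCm38.p6 run from 250 bases before to 50 bases after the annotated start. They were found for 33 of the 38 members; Ccna2, Aurkb, Tpx2, Kif20a and Smc4 had no entry in the table. CHR was searched as TTTGAA or TTCGAA and the NF-Y box as CCAAT, both on either strand, so that TTCAAA and ATTGG also count, and overlapping matches were kept. Each run below holds the 150 bases before the start and the 30 after it, 5′ to 3′ on the strand of the gene, with both kinds of match in capitals.
Top2a, chr11:99024160-99024339, minus strand: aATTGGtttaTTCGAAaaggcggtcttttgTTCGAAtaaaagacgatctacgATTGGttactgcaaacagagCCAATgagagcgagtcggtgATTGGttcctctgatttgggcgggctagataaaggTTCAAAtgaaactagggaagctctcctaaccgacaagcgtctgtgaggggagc
Ube2c, chr2:164769779-164769958, plus strand: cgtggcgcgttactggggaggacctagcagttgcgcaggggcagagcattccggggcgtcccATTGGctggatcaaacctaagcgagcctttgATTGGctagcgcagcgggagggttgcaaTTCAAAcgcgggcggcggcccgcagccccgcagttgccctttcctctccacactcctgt
Cenpf, chr1:189688057-189688236, minus strand: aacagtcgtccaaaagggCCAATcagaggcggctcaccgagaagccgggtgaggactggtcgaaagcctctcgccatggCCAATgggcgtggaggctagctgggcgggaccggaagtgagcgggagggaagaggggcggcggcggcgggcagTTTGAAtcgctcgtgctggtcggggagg
Cdca8, chr4:124936888-124937067, minus strand: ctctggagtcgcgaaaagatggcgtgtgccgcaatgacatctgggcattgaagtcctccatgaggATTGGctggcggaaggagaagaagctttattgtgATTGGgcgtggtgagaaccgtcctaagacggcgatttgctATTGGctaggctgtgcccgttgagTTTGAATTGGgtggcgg
Cdc20, chr4:118437314-118437493, minus strand: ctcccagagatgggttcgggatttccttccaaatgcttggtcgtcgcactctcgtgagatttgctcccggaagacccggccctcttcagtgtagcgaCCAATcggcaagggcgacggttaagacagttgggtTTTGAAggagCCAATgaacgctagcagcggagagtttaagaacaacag
In Cdca8 the CHR letters and an ATTGG overlap.

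A CHR match lay in 25 of the 33 member windows (75.8%), against 21.7% of the 27025 genes in the table and 17.1% of the 4581 genes that reached 20 counts per 1000000 UMIs (CPM) in at least 1 library. CCAAT lay in 25 of 33 (75.8%), against 41.1% of all genes and 43.3% of the expressed ones. Both motifs stood together in 21 members (63.6%), against 8.61% and 7.40%. Of the 25 members with CHR, 22 had a match between 50 bases before and 50 bases after the start. The same share among all genes with CHR was not computed. Top2a had 3 CHR matches and 4 CCAAT matches within its printed stretch, while Ube2c and Cenpf each had 1 and 2. These are matches of letters, and binding was not measured.

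The droplet libraries were read at the 3′ end of transcripts and counted as unique molecular identifiers (UMIs), so that a captured transcript molecule counts once whatever its length. Cells with at least 1000 detected genes and at most 10% mitochondrial UMIs were used, which left 7941 cells at E7.0, 5194 at E7.25 and 8438 in E7.5 posterior. Their median depth was 11295, 8298 and 9254.5 UMIs. Shared cell barcodes between 2 libraries numbered at most 22. A cell counted as positive at 2 or more UMIs of the marker, or 10 or more for Ttr, and could be positive for several markers. With 1 library per group no test was possible. Intervals below are exact 95% intervals that cover counting error only, and the spread between embryos was not measured.

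Each marker was set beside a list of companion genes. The lists were chosen with earlier results of these data known, so the counts are no independent test of the sets. Every gene of the companion list of a set was higher in its positive than in its negative cells, in each library where the set had at least 20 cells: 6 of 6 for Utf1, 7 of 7 for T, 7 of 7 for Mesp1, 8 of 8 for Noto or Foxj1, 7 of 7 for Ttr and 8 of 8 for Elf5. Lists of other sets were higher too. In T-positive cells the Noto or Foxj1 list was 2.36, 3.93 and 4.17 times as high as in T-negative cells, next to 2.23, 3.65 and 3.11 times for the T list itself, and all 7 genes of the Mesp1 list were higher. In Utf1-positive cells 7 of 8 genes of the Elf5 list were higher at E7.0 and E7.25. The sets overlap. Of the 85 Elf5-positive cells at E7.0, 82 were also Utf1-positive, and 205 of the 223 Noto or Foxj1-positive cells in E7.5 posterior were also T-positive. At E7.0, 196 of the 313 Noto or Foxj1-positive cells were T-positive and 98 were Utf1-positive. Elf5-positive cells in E7.5 posterior numbered 11, too few for a ratio.

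Together the 38 genes made up 0.486% of all UMIs at E7.0 (interval 0.485 to 0.488), 0.446% at E7.25 (0.445 to 0.448) and 0.498% in E7.5 posterior (0.497 to 0.50). E7.25 was thus lower than E7.0 by a log2 ratio of -0.12, E7.5 posterior was higher than E7.25 by 0.16, and E7.5 posterior exceeded E7.0 by 0.04. In the median cell this meant 49, 33 and 40 module UMIs at the cells' own depth. Nearly every cell held some: 1 cell at E7.0, 9 at E7.25 and 1 in E7.5 posterior had none. Without Top2a, Ube2c and Cks2, the members with the most UMIs, the ratio of E7.25 to E7.0 was -0.06. With the 6 marker sets weighted equally, E7.5 posterior was below E7.0, at -0.02.

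Among Cdk1 and its partners, Cks2 moved the most between libraries. Cks2 binds Cdk1 and helps it to find its substrates. It stood at 369 CPM at E7.0, 179 at E7.25 and 362 in E7.5 posterior, so that the middle library was about 2-fold below the others (log2 ratio -1.04 to E7.0, interval -1.07 to -1.01). Cdk1 itself, the kinase that drives entry into mitosis, had the same shape with 197, 120 and 205 CPM. Ccnb2 and Ccna2, a B-type and the A-type cyclin, did so more weakly, with 102, 81.4 and 105 for Ccnb2 and 141, 118 and 143 for Ccna2. Ccnb1, the main mitotic cyclin, did not dip: it had 179, 234 and 230 CPM.

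The chromosomal passenger complex corrects faulty attachments of chromosomes and later steers cytokinesis. Its kinase Aurkb had 69.8 CPM at E7.0, 38.5 at E7.25 and 72.3 in E7.5 posterior. The other genes of this complex on the list barely changed: Birc5 (survivin) had 313, 296 and 307, and Cdca8 (borealin) had 271, 263 and 262. Incenp, its scaffold, is not on the list and had 110, 164 and 129. Among the 3 listed genes of this complex, the low value at E7.25 therefore belonged to the kinase alone.

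Kinetochore genes split in the same way. Cenpa, the histone variant that marks the centromere, had 184, 136 and 187 CPM. Cenpf, a large coat protein of the kinetochore, had 343, 306 and 310, and the microtubule motor Cenpe had 103, 109 and 96.7. Ndc80 and Nuf2, partners in the complex that grips microtubules, stayed between 36.8 and 38.5 and between 24.2 and 29.1.

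Of the spindle genes, Nusap1, which bundles microtubules near chromosomes, had 80.2, 55.4 and 97.0 CPM. Tpx2, the activator of Aurka, had 136, 143 and 146, and Hmmr, which helps to shape the spindle poles, had 78.1, 81 and 67.0. Tacc3, Ckap2 and Ckap2l, which support spindle microtubules, stayed within 77.1 to 86.8, 22.8 to 26.3 and 30.1 to 35.1. Gtse1 was the faintest member, at 12.9, 10.0 and 13.7, and was the 1 member under the 20 CPM set for counting changes between libraries.

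The mitotic kinases and checkpoint genes were closer together. Plk1, which acts at several steps of mitosis, had 106, 121 and 122 CPM, and Aurka, the centrosome kinase, had 88.3, 81.7 and 83.9. The spindle checkpoint genes Bub1, Bub1b and Ttk ranged from 53.3 to 62.6, from 46.9 to 57.8 and from 30.7 to 32.6. The 5 kinesins (Kif11, Kif20a, Kif20b, Kif23 and Kif2c), motors that slide or dismantle microtubules, lay between 43.2 and 71.3 in all libraries.

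Of the 3 chromosome structure genes, Top2a and Smc4 were nearly level. Top2a, which untangles sister chromosomes, had 406, 408 and 418 CPM, and the condensin subunit Smc4 had 187, 183 and 175. Mki67, which coats mitotic chromosomes, was highest at E7.25, with 139, 172 and 141. For exit from mitosis, Ube2c, the ubiquitin-conjugating enzyme of the anaphase promoting complex, had 408, 359 and 397, and the activator of that complex, Cdc20, had 233, 215 and 274. Cdca3 had 69.8, 91.3 and 77.1. The cytokinesis genes Anln and Ect2 stayed within 25.8 to 28.3 and 25.7 to 30.9.

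**Figure D1:**
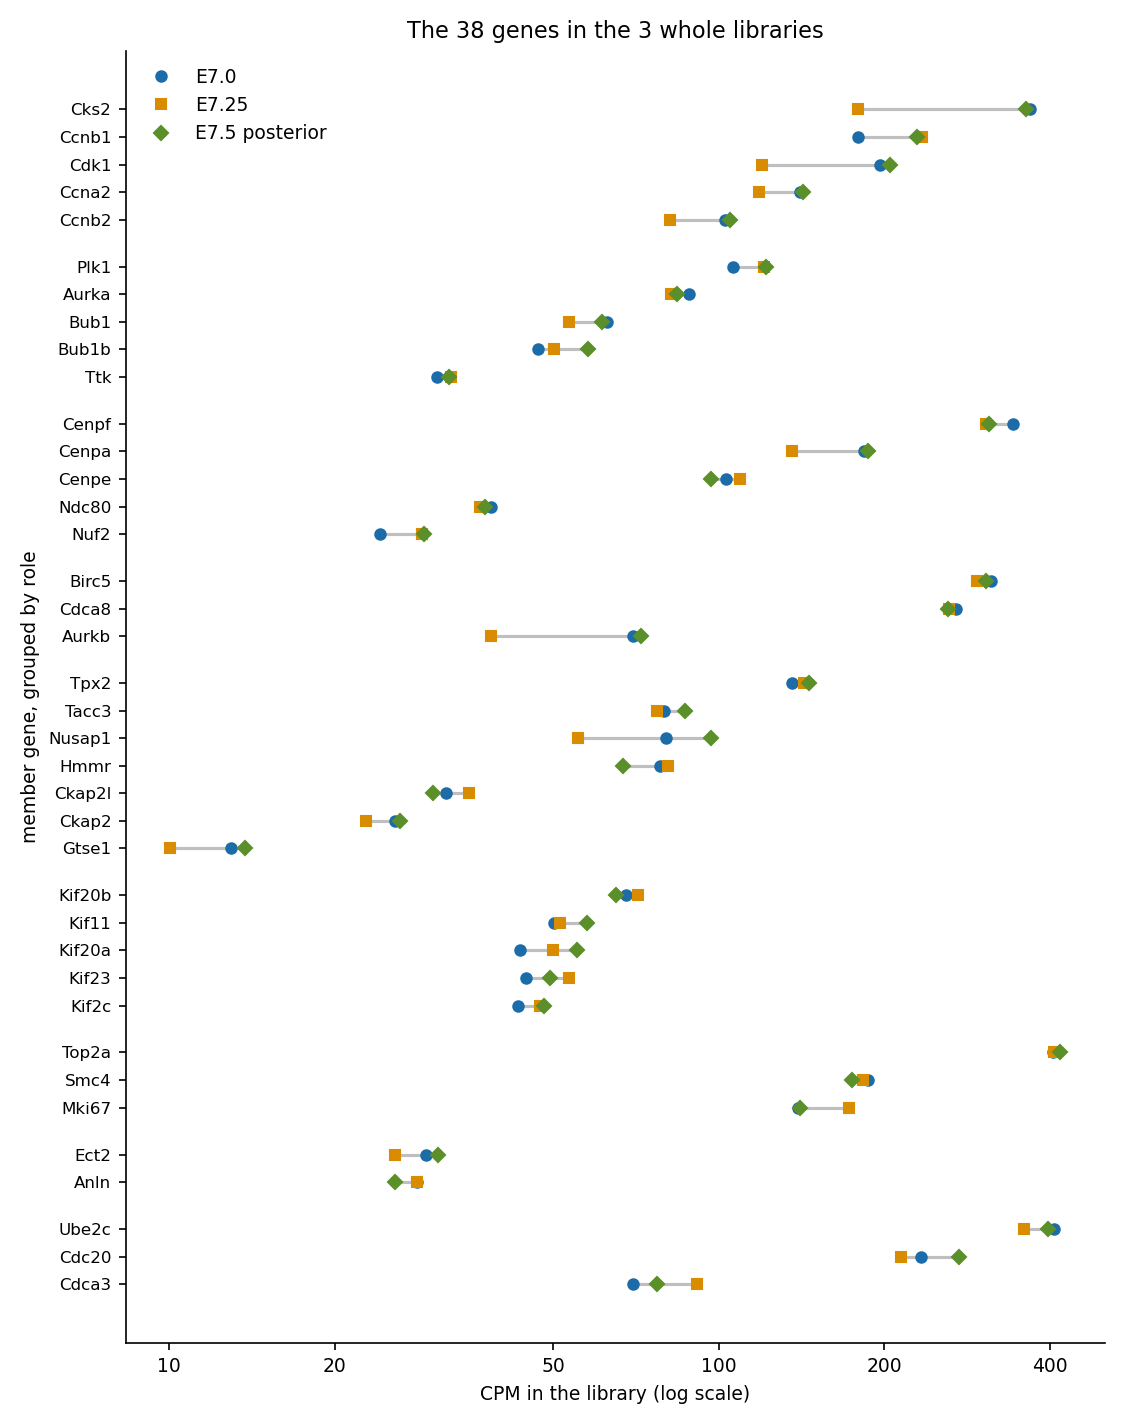
Level of each of the 38 genes in the 3 whole libraries, in CPM on a log scale, with genes grouped by role and a line joining the lowest and highest library. Cks2, Cdk1, Aurkb and Nusap1 have an E7.25 point well to the left of the other two, while Top2a, Birc5 and Cdca8 have points that nearly coincide.

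Counted at 1.5-fold, 3 of 37 measured members (Cdk1, Aurkb and Cks2) were lower at E7.25 than at E7.0 and none was higher, where 6.0% of all measured genes were lower and 12.7% higher. From E7.25 to E7.5 posterior 4 of 37 (Cdk1, Aurkb, Nusap1 and Cks2) were higher and none lower, against 5.08% and 10.3% of all genes. These 2 comparisons share the E7.25 library. With TMM factors of edgeR in place of library totals, 5 members (Cdk1, Aurkb, Cenpa, Nusap1 and Cks2) passed 1.5-fold between E7.25 and E7.0. All were lower at E7.25. Of all genes, 18.0% passed in either direction, and the share that was lower was not computed with these factors. The median member was then at -0.23 and the median of all genes at -0.10. Between E7.5 posterior and E7.0 none of the 37 passed 1.5-fold, against 4.90% of all genes. The median member ratio was -0.03 for E7.25 over E7.0, where the median of all measured genes was 0.12, and 0.04 for E7.5 posterior over E7.25, where it was -0.09. Across the 38 members, the ratio of E7.25 to E7.0 had a Pearson r of 0.39 with the length of the longest coding transcript, and that of E7.5 posterior to E7.25 one of -0.46. The part of transcript length in the low values at E7.25 was not tested.

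Across the 6 marker sets the share of the 38 genes stayed within a narrow band, from 0.377% in Ttr-positive cells at E7.25 to 0.529% in T-positive cells at E7.0, a 1.40-fold span over 17 values. T-positive cells were above T-negative cells in all 3 libraries, by log2 ratios of 0.17, 0.06 and 0.10. Ttr-positive cells were below Ttr-negative cells in all 3, by -0.30, -0.29 and -0.36. The negative cells of the other sets include most Ttr-positive cells. Ttr-negative cells held 0.496%, 0.462% and 0.504%, and T-positive cells 0.529%, 0.461% and 0.521%. At E7.25 T-positive cells were thus not above Ttr-negative cells, and Mesp1-positive cells, at 0.456%, were below them. Mesp1-positive cells were slightly above their negatives, by 0.11, 0.04 and 0.05, but the mean of the 3 libraries was 0.02 against 0.07 when only cells positive for 1 marker were used. Utf1-positive cells were close to theirs, at -0.02, 0.02 and 0.03, and the sign for this set changed with the settings. Elf5-positive cells were at 0.03 and 0.11, with intervals from -0.0047 to 0.064 and from 0.09 to 0.14. When 1 UMI was enough, the value at E7.0 was -0.04 and the mean 0.02 against 0.07.

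**Figure D2:**
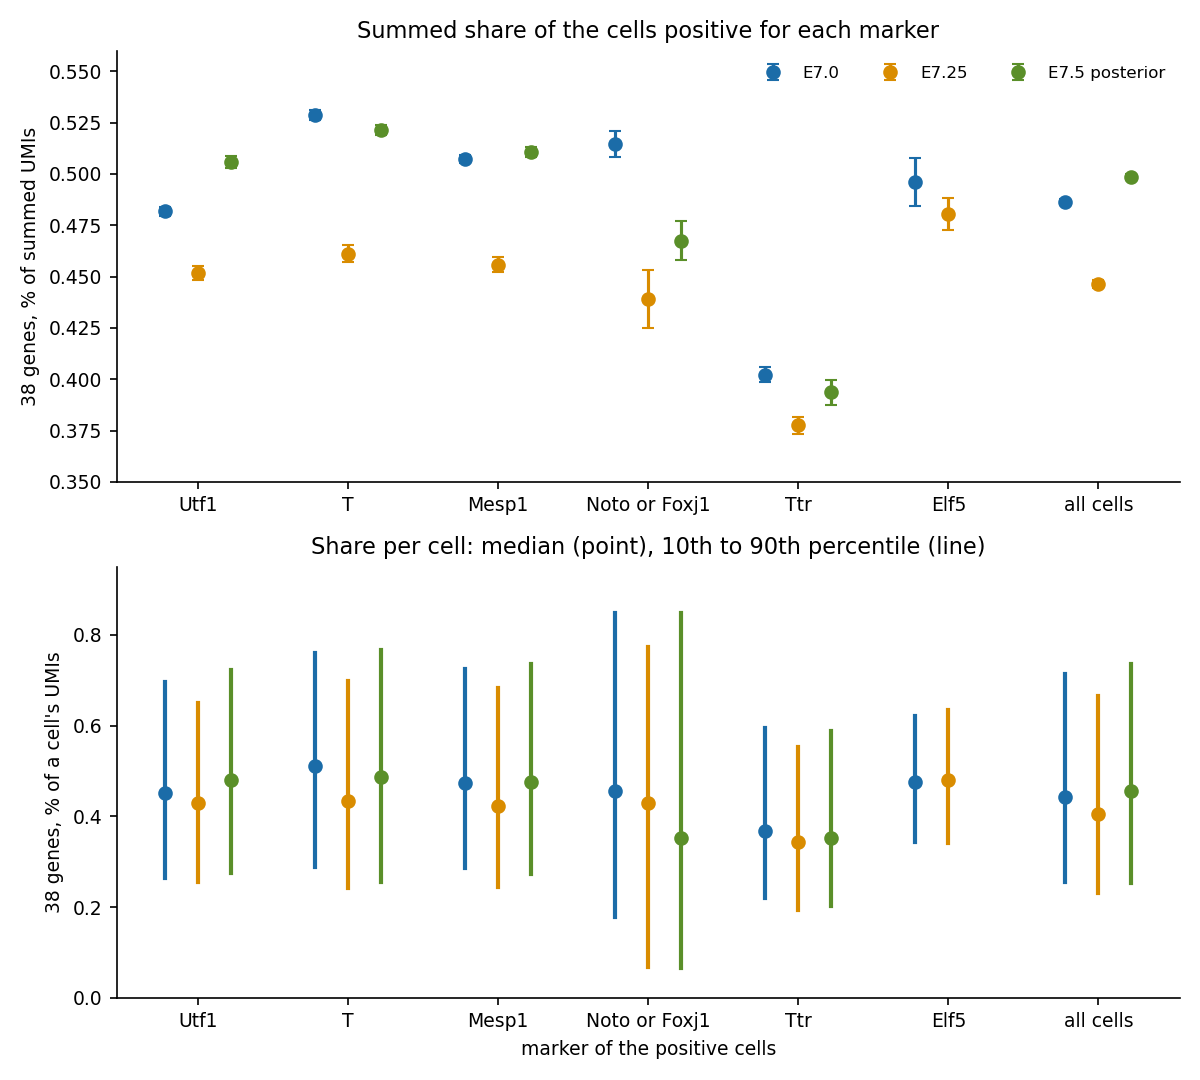
Upper panel: share of the 38 genes in the summed UMIs of the cells positive for each marker and of all cells, in percent, with 95% counting intervals and an axis that starts above 0. Lower panel: share per cell, with the median as a point and a line from the 10th to the 90th percentile; Ttr-positive cells are lowest in the upper panel, and Noto or Foxj1-positive cells have the longest lines in the lower panel.

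In T-positive cells the 38 genes held 0.529% of UMIs at E7.0, 0.461% at E7.25 and 0.521% in E7.5 posterior. T, or brachyury, is the transcription factor of the primitive streak. The positive ratio was shared by most members: 33 of 37 were above 0 at E7.0, 22 of 37 at E7.25 and 31 of 37 in E7.5 posterior, with medians of 0.15, 0.02 and 0.07 where all measured genes had medians of 0.00, -0.04 and -0.00. None reached 1.5-fold, where 6.24%, 10.2% and 6.26% of all genes did. Top2a had the highest ratio of the measured members at E7.0 and in E7.5 posterior, and Ccnb2 at E7.25. Top2a had 487 CPM at E7.0 in T-positive and 375 in T-negative cells, 443 and 397 at E7.25, and 475 and 387 in E7.5 posterior. Cenpf followed with 398 and 322, 332 and 298, and 347 and 290. Cks2 differed little, with 382 and 364, 181 and 179, and 349 and 370. Birc5 did not differ beyond its interval in any of the 3, with log2 ratios of -0.02, -0.04 and -0.01. T-positive cells were also deeper, with a median of 13463 UMIs against 11295 in all cells at E7.0, and the per-cell share had a Pearson r of 0.20, 0.23 and 0.24 with log depth over the cells of the 3 libraries. With each cell thinned to 5000 UMIs before markers were read, the mean ratio of the 3 libraries was 0.12, and at full depth it was 0.11.

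Mesp1, a factor of the earliest mesoderm, is switched on as cells leave the streak. Cells with both T and Mesp1 had 0.530%, 0.457% and 0.523%, and cells with T but no Mesp1 had 0.525%, 0.469% and 0.519%. Cells with Mesp1 but no T were lowest of the 3 classes in each library, at 0.487%, 0.455% and 0.495%. At E7.25 the last of these differed from the cells with both by less than their counting intervals (0.450 to 0.459 and 0.452 to 0.462). None of 37 members passed 1.5-fold between Mesp1-positive and negative cells, against 12.5%, 13.1% and 8.59% of all genes. Cdc20 differed by a like amount in each library, at 263 and 208 CPM at E7.0, 249 and 199 at E7.25, and 311 and 254 in E7.5 posterior.

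Utf1 marks the pluripotent epiblast. Its positive cells held 0.482%, 0.452% and 0.506%, next to 0.489%, 0.444% and 0.496% in the negative cells. None of 37 members passed 1.5-fold in any library, against 10.5%, 12% and 8.90% of all genes. The members' medians were -0.04, 0.00 and 0.01.

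Visceral endoderm, marked by the serum protein gene Ttr, had the smallest share of the 38 genes in every library, with 0.402% at E7.0 (interval 0.398 to 0.406), 0.377% at E7.25 (0.373 to 0.382) and 0.394% in E7.5 posterior (0.388 to 0.40). The negative cells had 0.496%, 0.462% and 0.504%. Most members took part: 28, 32 and 30 of 37 were below 0, with medians of -0.34, -0.31 and -0.33, while all measured genes had medians of 0.04, 0.02 and 0.04. At 1.5-fold, 5, 6 and 7 of 37 members were lower, near the 15.3%, 14.6% and 17.0% of all genes that were. None was higher at E7.0 or E7.25 and 1, Anln, was higher in E7.5 posterior, against 27.3%, 24.5% and 27.8% of all genes.

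Aurkb, Bub1 and Cdca8 were lower by more than 1.5-fold in all 3 libraries. Cdca8 had 172 CPM at E7.0 in Ttr-positive and 282 in negative cells, 178 and 282 at E7.25, and 155 and 267 in E7.5 posterior. Bub1 had 39.7 and 65.3, 33.0 and 57.9, and 35.3 and 62.6. Aurkb had 43.4 and 72.9, 24.8 and 41.5, and 47.6 and 73.5. In E7.5 posterior Cenpf had the largest gap of the 37 members, with 173 and 317 CPM (log2 ratio -0.87, interval -0.98 to -0.77).

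A few members went the other way in the visceral endoderm. Anln, the scaffold of the contractile ring, had 39.4 and 26.9 CPM at E7.0, 32.7 and 27.3 at E7.25, and 41.7 and 25 in E7.5 posterior. Hmmr had 95.1 and 76, 99.9 and 76.8, and 81.8 and 66.3. Birc5 was nearly level, with 329 and 311, 294 and 296, and 331 and 306. The set as a whole thus held fewer transcripts of the passenger kinase and of borealin but not of survivin, their partner.

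Genes of S phase were also mostly low in Ttr-positive cells. Of 32 genes of S phase, 15, 14 and 14 were lower by 1.5-fold and 2, 1 and 1 were higher, with medians of -0.56, -0.57 and -0.54. The measured genes of G1 and cell cycle exit were mixed: 1 of 9, 1 of 10 and 4 of 11 were higher by 1.5-fold and 4, 4 and 5 were lower. Of all genes, 27.3%, 24.5% and 27.8% were higher and 15.3%, 14.6% and 17.0% lower. Ccnd1 and Ccnd2, D-type cyclins of G1, were lower in each library. At E7.0 Ccnd1 had 24.1 and 180 CPM and Ccnd2 had 13.8 and 93.9. Ccnd3, another D-type cyclin, was higher by 1.5-fold in E7.5 posterior, and the kinase inhibitor Cdkn1a was lower there. Cdkn1c, an inhibitor of cyclin-dependent kinases, was higher, at 158 and 45.2, 151 and 87.9, and 192 and 70.2. Ttr-positive cells had a higher median mitochondrial share of UMIs (4.18%, 5.19% and 6.76%) than all cells (2.26%, 2.39% and 3.44%). Without mitochondrial and ribosomal protein UMIs in the total, the mean ratio of the 3 libraries was -0.41, against -0.32 with them. With cells limited to 5% mitochondrial UMIs it was -0.27. Markers of parietal endoderm summed to 415, 585 and 369 CPM in the set, against 103, 252 and 132 in the negative cells. Of the 3 genes of that list, 3, 2 and 3 were higher. Markers of definitive endoderm summed to 636, 488 and 689 CPM, against 260, 202 and 173, with 3, 2 and 4 of 4 genes higher. The Elf5 list summed to 970, 833 and 796 CPM, against 78.4, 261 and 89.8 in the negative cells, with 3, 2 and 3 of its 8 genes higher. The part of these markers in the result was not tested.

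Extraembryonic ectoderm, marked by Elf5, a factor of trophoblast stem cells, had a share of 0.496% at E7.0 in 85 cells and 0.481% at E7.25 in 245 cells. Its cells were the most alike. In cells thinned to 5000 UMIs the variance over the mean of the module count was 2.29 and 2.20, against 3.83 in all cells of either library, where pure counting noise alone would give about 1. Single members still differed between Elf5-positive and negative cells. For Anln the positive cells had 64.0 CPM and the negative cells 27.8 in the E7.0 library, next to 55.0 and 26.4 at E7.25. Ckap2 was at 52.6 and 25.4, and at 40.9 and 21.5. Nusap1 was at 31.3 and 80.8, and at 40.3 and 56.4. At 1.5-fold, 3 of 38 members were higher (Ckap2, Anln and Gtse1) and 2 lower (Nusap1 and Ckap2l) at E7.0, against 18.7% and 13.4% of all genes. At E7.25, 2 of 37 were higher (Ckap2 and Anln) and none lower, against 11.8% and 11.3%. In each case the called members were a smaller share than among all genes.

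**Figure D3:**
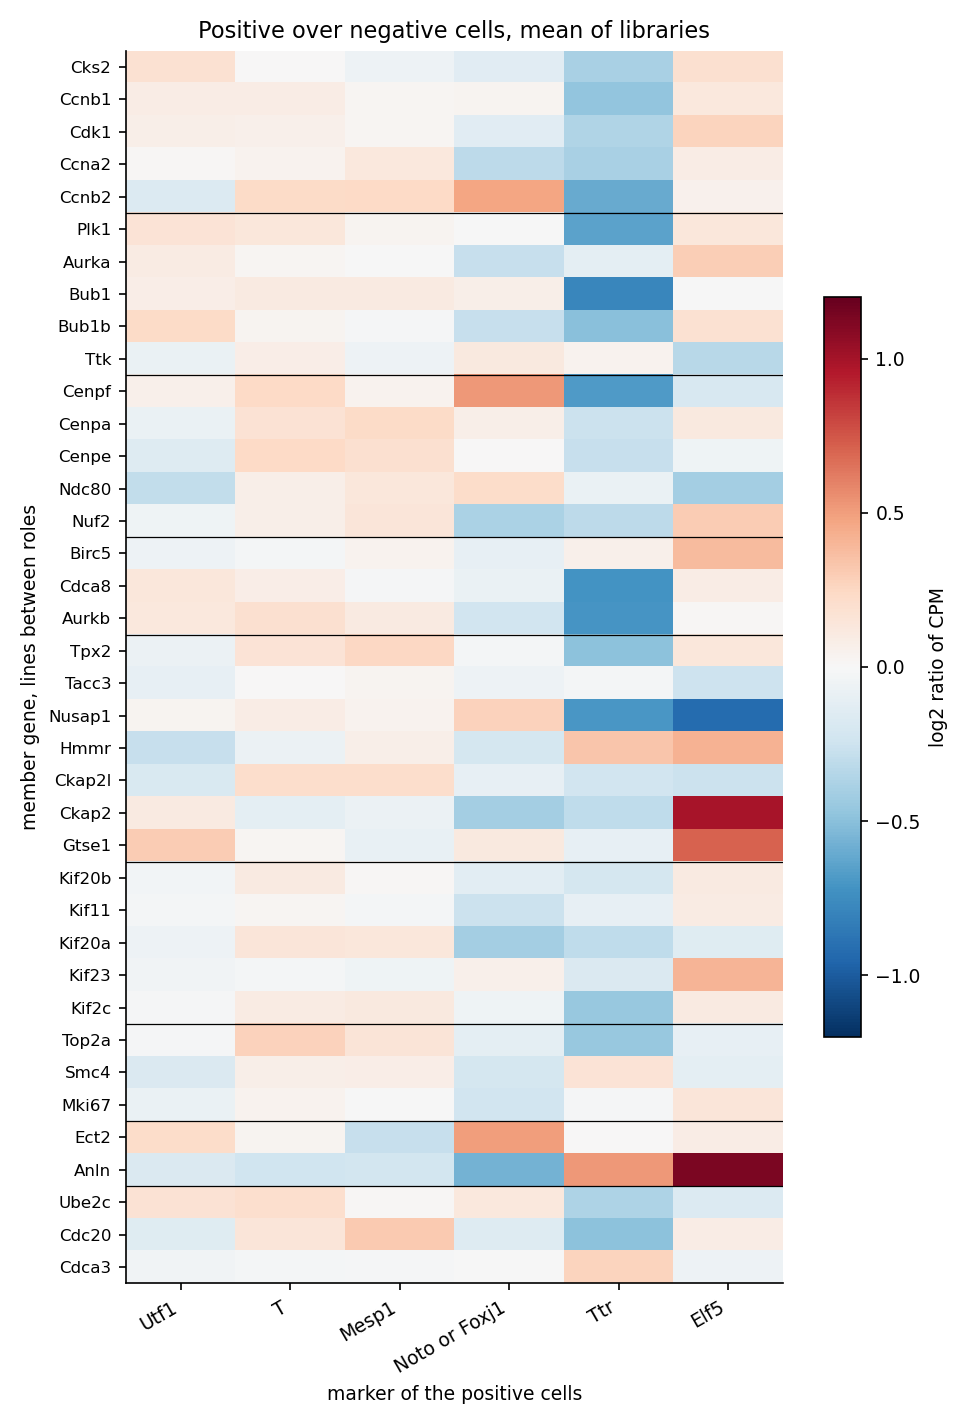
Mean over libraries of the log2 ratio of CPM between cells positive and negative for each marker (columns), for the 38 genes grouped by role (rows, with lines between roles); red is higher and blue lower in the positive cells. The Ttr column is mostly blue, with Anln, Hmmr and Cdca3 in red; the Elf5 column has Anln and Ckap2 in dark red and Nusap1 in dark blue.

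Noto or Foxj1-positive cells, the set for node and notochord, had a mean share near that of the other cells and the widest spread. Foxj1 is the master factor of motile cilia, and Noto acts above it in the node. The set held 0.515% at E7.0 (313 cells), 0.439% at E7.25 (80 cells) and 0.468% in E7.5 posterior (223 cells), with log2 ratios to the other cells of 0.09, -0.02 and -0.09. With a limit of 4 UMIs the ratio was 0.21 at E7.25 and 0.02 in E7.5 posterior. It was 0.0037 in E7.5 posterior with at least 2000 detected genes and -0.0044 at E7.0 with a limit of 1 UMI, so the direction of this mean depended on those settings. The mean also joined unlike parts. At E7.0 the 61 cells with 2 or more Noto UMIs held 0.614% (log2 ratio 0.34, interval 0.30 to 0.38), and the 272 with 2 or more Foxj1 UMIs 0.515% (0.09). In E7.5 posterior the ratios were -0.12 for 62 Noto cells and -0.06 for 200 Foxj1 cells. E7.25 had 6 Noto cells, too few for a ratio. Per cell, over the whole set, the 10th and 90th percentiles were 0.178% and 0.848% at E7.0, 0.0674% and 0.772% at E7.25, and 0.0652% and 0.848% in E7.5 posterior. In all cells of the same libraries these were 0.256% and 0.714%, 0.231% and 0.664%, and 0.253% and 0.735%. The variance over the mean after thinning was 6.88, 7.80 and 10.1, above that of the other 5 sets in every library, which lay between 2.20 and 4.42 where a set had at least 20 cells.

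Both ends of the range were filled. Low was set at or under 12 module UMIs of 5000, about the lowest 10% of all thinned cells, and high at or over 37, about the highest 10%. These are ranges of a count, not cell types, and 1789 of 19676 cells lay near the low limit and 943 near the high one. Of the Noto or Foxj1-positive cells 16.8% were low at E7.0 (interval 12.8 to 21.5), 25.4% at E7.25 (15.5 to 37.5) and 31.1% in E7.5 posterior (24.4 to 38.4), against 10.7%, 14.6% and 11.1% of all cells. High cells made up 20.5%, 16.4% and 17.8% of the set (intervals 16.1 to 25.4, 8.49 to 27.5 and 12.5 to 24.2), against 10.3%, 7.04% and 12% of all cells. Ttr-positive cells were low more often, at 16.2%, 23.1% and 21.3%, but high less often, at 3.68%, 2.92% and 4.14%. T-positive cells were high in 15.4%, 8.52% and 15.2%.

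**Figure D4:**
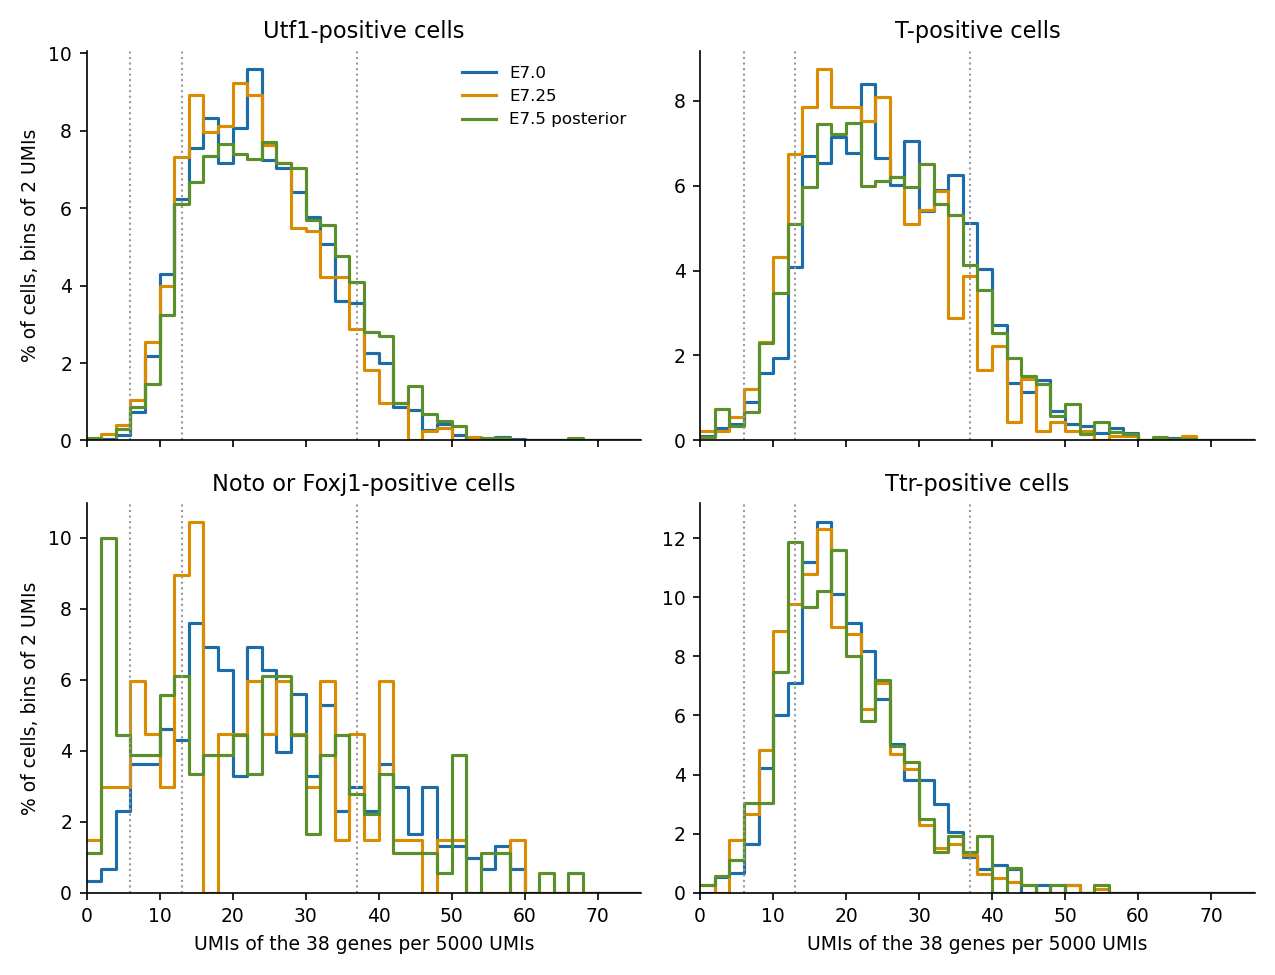
Distribution of the module count over cells thinned to 5000 UMIs, as percent of cells in bins of 2 UMIs, for 4 marker sets and the 3 libraries; dotted lines mark the limits for very low, low and high cells. Ttr-positive cells peak to the left of Utf1-positive and T-positive cells, and the Noto or Foxj1 panel for E7.5 posterior has its fullest bin under 5 UMIs.

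In E7.5 posterior 18 of the 180 thinned Noto or Foxj1-positive cells held 2 or 3 module UMIs, the fullest bin of that set and library. A very low range was therefore added after the data were seen, at or under 5 module UMIs of 5000, or 0.1%. It held 139 of 19676 cells. Of these, 43 (30.9%) were Noto or Foxj1-positive, against 2.60% of the cells above the limit. By library, very low cells were 10 of 303 in the set at E7.0 (3.30%, interval 1.59 to 5.99), 5 of 67 at E7.25 (7.46%, 2.47 to 16.6) and 28 of 180 in E7.5 posterior (15.6%, 10.6 to 21.7). In all cells they were 0.56%, 0.854% and 0.757%. Because the limit was drawn from this set in E7.5 posterior, the higher share there does not test a difference from E7.0. The groups are also 1 library each, and only the label for E7.5 names a dissected region. There were 172 cells near this limit.

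Most of the 43 very low node cells, 34 of them, had 5 or more UMIs of ciliary genes, 8 had 1 to 4 and 1 had none. The cilia list, also chosen after the data were seen, sums Pifo, Dynlrb2, Tekt1 and Cfap126, which belong to motile cilia or their assembly. With 5 or more such UMIs of 5000, 7 of 32 cells were very low at E7.0, 5 of 18 at E7.25 and 22 of 62 in E7.5 posterior. With 1 to 4 they were 2 of 119, 0 of 27 and 6 of 83. With none they were 1 of 152, 0 of 22 and 0 of 35. A count of 0 of 27, 22 or 35 cells allows a share of up to 12.8%, 15.4% or 10.0%. Summed over libraries, cilia-rich cells were very low in 30.4% and cells with no cilia UMI in 0.478%. Of the 34 very low cilia-rich cells, 22 came from E7.5 posterior, the library from which the limit was drawn. Limit and list were both chosen after these cells were seen, so the counts describe the cells and test no link.

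Not every cilia-rich cell was low. Of the 112 cells with 5 or more cilia UMIs, 17 (15.2%) were high, next to 33 of 209 (15.8%) of those with none. Their median module count was 11 UMIs and their 90th percentile 41.9, against 23 and 41.0. Cells with 1 to 4 cilia UMIs had a median of 25 and were high in 24.0%.

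**Figure D5:**
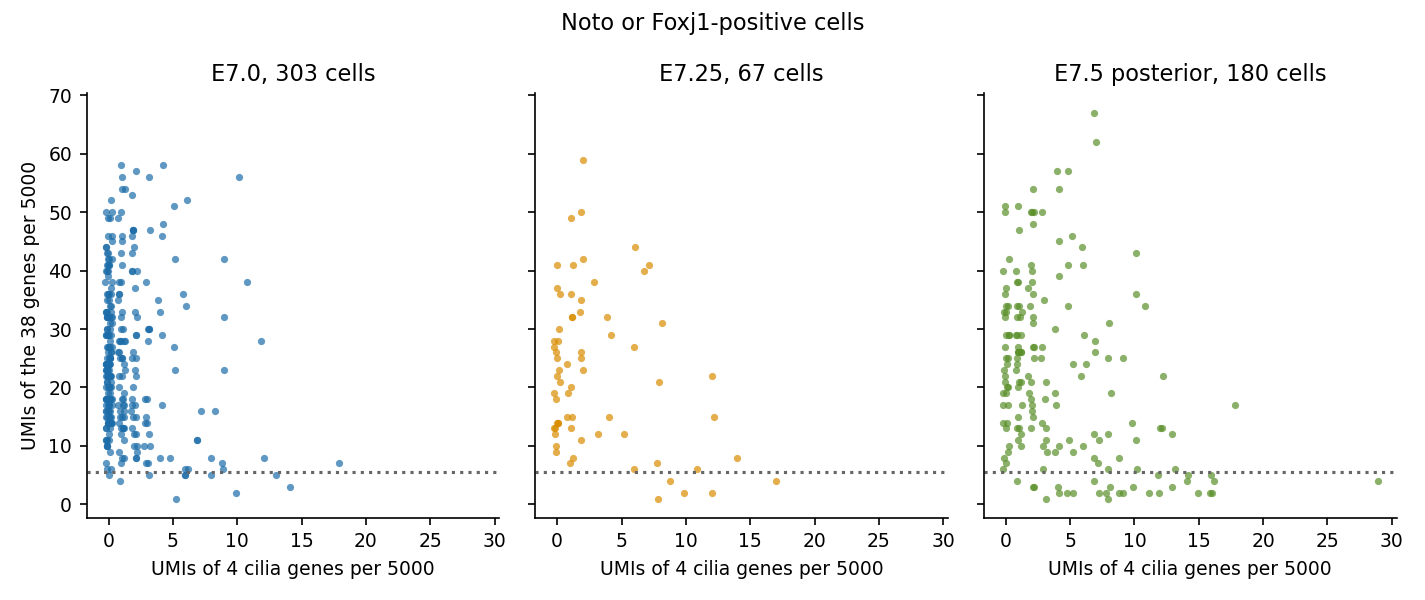
UMIs of the 38 genes against UMIs of 4 cilia genes in each Noto or Foxj1-positive cell after thinning to 5000 UMIs, by library, with a small sideways jitter; the dotted line is the very low limit. Points under the line lie mostly at 5 or more cilia UMIs, and the group is largest in E7.5 posterior, with 28 of 180 cells.

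Of the measured genes of G1 and cell cycle exit, 3 of 10, 2 of 9 and 3 of 10 were higher by 1.5-fold in the set and as many were lower, against 6.90%, 10.7% and 13.3% of all genes higher and 4.57%, 9.48% and 9.42% lower. Cdkn1b and Btg1 were higher and Ccnd2 and Ccne1 lower in each library. Between Noto or Foxj1-positive and negative cells, Cdkn1b (p27, an inhibitor of cyclin-dependent kinases) had 36.8 and 21.5 CPM at E7.0, 40.1 and 18.1 at E7.25, and 41.6 and 16.8 in E7.5 posterior. Btg1, an antiproliferative gene, had 55.6 and 22.8, 76.8 and 30.1, and 145 and 38.2. Ccnd2 was lower, with 26.2 and 88.2, 50.4 and 157, and 40.7 and 136, and so was Ccne1, the cyclin of S phase entry, with 98.3 and 167, 77.9 and 168, and 66.5 and 168. Of the 32 S phase genes, 4, 9 and 11 were lower by 1.5-fold and none was higher, against the same shares of all genes.

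Inside the set, 43 cells were very low, 402 lay between the limits and 105 were high. Cdkn1b had 112 CPM in the very low cells (24 UMIs in all), 40.3 between the limits and 43.8 in the high cells. The other genes named here differed from the cells between the limits in the same direction at both ends, and by more in the very low cells. Btg1 had 274, 83.6 and 118, Ccnd1 had 27.9 (6 UMIs), 76.1 and 43.8, and the summed S phase list had 2065, 3704 and 2895. Noto had 167, 76.1 and 114, Foxj1 591, 364 and 459, T 1219, 587 and 872, and Chrd, a BMP antagonist, 293, 124 and 173. Higher levels of these notochord genes were thus not particular to the very low cells. Before thinning the very low cells were shallower, with a median of 6146 UMIs against 10613 between the limits and 11733 in the high cells, and the part of cell size was not tested.

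Other very low cells were negative for Noto and Foxj1 at the limit of 2 UMIs. In the 32 that were Ttr-positive, Cdkn1c stood at 594 CPM against 149 in the 1787 Ttr-positive cells between the limits. Cdkn1a, another kinase inhibitor, stood at 75 (12 UMIs) against 11.4. Both were also raised in the 65 high Ttr-positive cells, at 308 and 24.6 (8 UMIs), so this was not particular to the very low cells. Cdkn1b did not follow in the Ttr-positive very low cells, with 1 UMI. The remaining 64 very low cells were in neither set. The companion list of the Noto or Foxj1 set nevertheless summed to 356 CPM in them, against 27.0 in the 15364 cells of neither set between the limits. Its 4 cilia genes summed to 206 against 7.68, and Chrd stood at 59.4 against 4.19. Definitive endoderm markers summed to 612 against 202, and whether these 64 are node cells under the marker limit was not tested. The kinase inhibitors in these 64 were at 90.6 (Cdkn1c), 31.2 (Cdkn1b) and 31.2 (Cdkn1a), against 66.6, 18.7 and 19.1. Of the Elf5-positive cells 0 of 84 at E7.0 and 0 of 242 at E7.25 were very low, which allows up to 4.30% and 1.51%.

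In the Noto or Foxj1 set, members did not move as a block against the negative cells. Cenpf was higher in Noto or Foxj1-positive than in negative cells in all 3 libraries, at 513 and 335, 422 and 304, and 423 and 307 CPM. Ccnb2 was at 136 and 101, 111 and 80.8, and 150 and 104. Ect2, an exchange factor that starts the contractile ring, was at 42.3 and 28.7, 37.8 and 25.5, and 39.7 and 30.6. Anln, its partner in the ring, was at 24.6 and 28.4, 16.0 and 28.5, and 16.3 and 26.0, the values at E7.25 and E7.5 posterior resting on 14 and 34 UMIs in the set. At 1.5-fold, Cenpf was higher at E7.0 and Nusap1 at E7.25, where 6.90% and 10.7% of all genes were. Lower were Ckap2 and Anln at E7.25, and Bub1b, Kif20a, Nuf2 and Anln in E7.5 posterior, against 9.48% and 9.42%. None of 37 was lower at E7.0, against 4.57%, and none was higher in E7.5 posterior, against 13.3%.

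Across cells of all kinds, the 38 genes varied together only weakly pair by pair. Over thinned cells, 667, 653 and 673 of 703 member pairs had a Pearson r above 0 in the 3 libraries, with medians of 0.04. Cenpf and Ube2c were the closest pair, at 0.28, 0.31 and 0.30. Against the sum of the other 37, Ube2c had an r of 0.47, 0.47 and 0.49 and Cenpf 0.39, 0.43 and 0.42, while Ccnb2 had 0.05, 0.03 and 0.05. These r values describe cells that share a library and a depth.

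Genes outside the list were ranked by how closely they followed the module. Among 2273 genes at 50 CPM or more in every library, the highest r with the module sum belonged to Arl6ip1 (0.31, 0.34 and 0.39), Prc1, a bundler of midzone microtubules (0.30, 0.31 and 0.29), Incenp, the scaffold of the passenger complex (0.25, 0.31 and 0.29), and Malat1, a nuclear noncoding RNA (0.25, 0.30 and 0.30). Jpt1, Bub3, Ube2s, Tubb4b, Ckap5, H2afx, Kif22, G2e3, Racgap1 and Ncl followed. The lowest r belonged to Ung, which removes uracil from DNA (-0.20, -0.17 and -0.23), Ccne1, Fth1, Slbp, which serves histone mRNA in S phase, Ftl1, Ttr, Apoa1 and Rbp4. The last 3 are visceral endoderm genes.

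The S phase list ran against the module. Over thinned cells the r between both sums was -0.26, -0.23 and -0.29. When cells of a library were ranked by the S phase sum into 5 groups, the module share was 0.525%, 0.518%, 0.488%, 0.433% and 0.389% from the lowest to the highest group at E7.0. In E7.5 posterior it was 0.545% in the lowest and 0.382% in the highest, and at E7.25 0.475% and 0.359%. Cells low in both sums were 3.67%, 4.55% and 2.43% of all cells. They were 13.5%, 19.4% and 26.7% of Noto or Foxj1-positive cells and 18.7%, 20.7% and 21.8% of Ttr-positive cells, but 2.26%, 1.19% and 0.795% of Utf1-positive cells and 1.22%, 1.2% and 0.654% of Mesp1-positive cells.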

How the data were processed

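Single cells were captured on the 10x Genomics 3′ platform, per the labels' protocols. The deposited values are raw UMI counts for each gene in each cell. Per the file headers, the matrices come from Cell Ranger 6.0.1. The genome build is not given in the sources used here. Depth, from 47672673 to 108350108 UMIs per library, sets the counting intervals. Members were found by symbol, summed per cell and divided by all UMIs of the cell, of a marker set or of a library. Ratios between members used genes at 20 CPM or more on at least 1 side, and 1.5-fold counted as called. For ranges of the module count, cells with 5000 or more UMIs were thinned to 5000 without replacement, which left out 614, 509 and 774 cells. Low both means at or under the 20th percentile of the module and of the S phase list. Named non-members are the 15 highest and 8 lowest correlates, of which 1 is not reported here. Predicted doublets were kept, and removed as an alternative. The gene ratio step, tested on simulated counts of 5168 genes for E7.25 over E7.0, found all of 200 genes changed 2-fold. The members, lists and marker sets were chosen with earlier results of these data known. Python 3.11.15, scipy 1.17.1 and edgeR 4.0.16 (normalization factors, as an alternative) were used. Alternatives covered filters, doublets, marker limits, scaling and thinning.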

Additional observations from a re-analysis of the deposited data

Results flagged for a closer look

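For Utf1-positive cells the ratio of the module share to negative cells had opposite signs between libraries, at -0.02 on the log2 scale for E7.0, 0.02 for E7.25 and 0.03 for E7.5 posterior. For Noto or Foxj1-positive cells it was 0.09 at E7.0 and -0.09 in E7.5 posterior. These differences between libraries were not tested, since each library is 1 sample. Barcodes left out of all comparisons also held the 38 genes. Those with under 1000 detected genes had a share of 0.395% at E7.0, 0.363% at E7.25 and 0.411% in E7.5 posterior, and those with 1000 or more genes and over 10% mitochondrial UMIs had 0.443%, 0.394% and 0.426%. All 6 values lie under the share of the kept cells of the same library.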

How the results depend on the processing

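All ratios here are log2 ratios of the module share, and those of a set are means of the libraries unless a library is named. A mean covers only libraries with at least 20 cells in the set. The T ratio stayed positive and the Ttr ratio negative in every library under all 12 alternatives. The mean kept its sign under 12 of 12 for Mesp1 and Elf5, and under 8 of 12 for Utf1 and for Noto or Foxj1. The means as reported were 0.011 for Utf1, 0.11 for T, 0.071 for Mesp1, -0.011 for Noto or Foxj1, -0.32 for Ttr and 0.072 for Elf5. The cause of the shifts was not tested.

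With at least 2000 detected genes the ratio was 0.0017 for Utf1, 0.044 for Noto or Foxj1 (0.0037 in E7.5 posterior) and -0.115 for E7.25 over E7.0. With at most 5% mitochondrial UMIs it was -0.0064 for Utf1 (-0.0070 at E7.25), 0.093 for T, 0.050 for Mesp1, -0.27 for Ttr, -0.108 for E7.25 over E7.0 and 0.044 for E7.5 posterior over E7.0. Without predicted doublets it was 0.119 for T, -0.331 for Ttr and 0.029 for E7.5 posterior over E7.0. Without mitochondrial and ribosomal protein UMIs it was 0.025 for Utf1, 0.132 for T, 0.092 for Mesp1, 0.011 for Noto or Foxj1, -0.409 for Ttr, and -0.151, 0.195 and 0.043 for E7.25 over E7.0, E7.5 posterior over E7.25 and E7.5 posterior over E7.0. Without Top2a, Ube2c and Cks2 it was -0.017 for Utf1 (-0.00029 at E7.25 and -0.0043 in E7.5 posterior), 0.094 for T, 0.079 for Mesp1, -0.291 for Ttr, 0.103 for Elf5, and -0.065, 0.113 and 0.049 for the same library pairs.

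In cells thinned to 5000 UMIs the ratio was -0.018 for Utf1 (-0.034 in E7.5 posterior), 0.123 for T, 0.065 for Mesp1, -0.034 for Noto or Foxj1, -0.336 for Ttr, -0.107 for E7.25 over E7.0 and 0.142 for E7.5 posterior over E7.25. With 1 UMI as the limit (5 for Ttr) it was -0.0059 for Utf1 (-0.0056 at E7.25 and -0.0077 in E7.5 posterior), 0.0998 for T, 0.062 for Mesp1, -0.0044 for Noto or Foxj1 at E7.0, -0.296 for Ttr and 0.015 for Elf5. With 4 UMIs (20 for Ttr) it was 0.039 for Utf1 (0.0038 at E7.0), 0.136 for T, 0.133 for Noto or Foxj1 (0.022 in E7.5 posterior), -0.334 for Ttr and 0.117 for Elf5. In cells positive for exactly 1 marker it was 0.092 for T, 0.017 for Mesp1 (-0.0045 in E7.5 posterior) and -0.327 for Ttr. For Noto or Foxj1 it was 0.064 at E7.0 alone, and for Elf5 0.019 at E7.25 alone. The other libraries had fewer than 20 such cells. As a mean of shares per cell it was 0.035 for Utf1, 0.131 for T, 0.089 for Mesp1, -0.059 for Noto or Foxj1, 0.126 for Elf5 and 0.150 for E7.5 posterior over E7.25. With the 6 sets weighted equally the library pairs were at -0.137, 0.135 and -0.021. In Noto or Foxj1-positive cells without cilia genes, an alternative added after seeing the data, the ratio was 0.043 at E7.0 alone (107 cells). The 13 such cells at E7.25 and 17 in E7.5 posterior were too few for a ratio. Their shares were 0.493% and 0.406%, against 0.446% and 0.498% in all cells.

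With TMM factors 5 members passed 1.5-fold between E7.25 and E7.0, all lower at E7.25, and 18.0% of all genes passed in either direction. The share of all genes that was lower was not computed with these factors. With limits at the 20th and 80th percentile the share of high cells in the Noto or Foxj1 set was 1.46 times that of all cells at E7.0, where it had been 1.98, and the share of low cells 1.79 times in E7.5 posterior, where it had been 2.82. Thinned to 3000 UMIs the latter was 3.95. With the limit at 5 of 5000 UMIs, also added later, low cells were 5.90, 8.74 and 20.6 times as frequent in the Noto or Foxj1 set as in all cells, and 2.19, 2.38 and 2.56 times in the Ttr set. Depth limits all ranges, which need 5000 UMIs per cell and left out 614, 509 and 774 cells. No paired analysis was possible because each group is 1 library and no test was made, and for the same reason no replicate could be left out.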
